A study of Mus musculus with 22 samples.

Results

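Collagen chain genes were followed in kidney RNA-Seq libraries of 22 mice. The table of read counts listed 32858 genes, and 44 of them carried a collagen chain symbol (Col, a type number, a, and a chain number). Of these 44 genes, 39 had at least 10 counts in at least 5 libraries and were described: 10 of 11 fibrillar chains, 8 of 8 basement membrane chains, and 21 of 25 other chains. Col2a1, Col9a1, Col9a2, Col10a1, and Col22a1 were too low, with at most 10 counts in any library. All mice were male C57Bl6/J mice of 8 to 10 weeks, and no engineered allele is named in the sources used here. The vehicle group (n = 5) received the carrier of KW6002, an adenosine receptor antagonist also called istradefylline, and the KW6002 group (n = 6) received KW6002 at 3 mg/kg each day from day -5 to day 7. The cisplatin group (n = 5) received 6 daily injections of cisplatin at 3 mg/kg, a platinum drug that injures the tubules of the kidney, and the cisplatin plus KW6002 group (n = 6) received both. Kidneys were taken 72 hours after the last cisplatin injection. Levels are given as counts scaled to a library of 1000000 (CPM) after TMM normalization, changes as log2 fold changes with their standard error (SE), and n counts mice, each with 1 library.

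Collagens are proteins of the extracellular matrix in which 3 chains wind into a triple helix. Fibrillar collagens (types I, III, V, XI, XXIV, and XXVII) form the fibrils or cables of the interstitium, with types I and III the most common there. Type IV collagen forms the sheet-like network of basement membranes: its α1 and α2 chains are found under nearly all epithelia and vessels, whereas its α3, α4, and α5 chains build the glomerular basement membrane of the adult kidney. Types XV and XVIII sit in or next to basement membranes, and type XVIII carries the fragment known as endostatin. The other chains belong to beaded filaments (type VI), to collagens that lie on fibrils (types IX, XII, XIV, XVI, and others), to short chain networks (type VIII), to membrane-spanning collagens (types XIII, XVII, XXIII, and XXV), and to anchoring fibrils (type VII).

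Per library, totals ran from 26471762 to 40510754 counts, with a median of 32721214.5. Summed CPM of 6 kidney tubule markers was between 17554 and 20670 in vehicle mice, so the tissue label held, and between 3175 and 3715 in cisplatin-treated mice and 7639 and 10908 in co-treated mice. The libraries carry label numbers of 2 series, c3 and c5, and every mouse given cisplatin belongs to series c5, as do 2 vehicle mice and 3 KW6002 mice. The summed CPM of 6 fat markers differed between mice of 1 group: vehicle replicates 1 and 2 held 749 and 1381, and the other vehicle mice 154 to 340. KW6002 replicate 1 held 595. These 3 libraries also had the highest sums of 6 leukocyte markers among mice without cisplatin (74.3 to 85.2, against 28.3 to 44.8 in the rest). All 3 belong to series c3, so in fits without them marker level and label series cannot be told apart. In cisplatin-treated mice the fat markers summed to 413 to 824, and in co-treated mice to 40.8 to 374. In bulk tissue, fewer cells of a type and less RNA per cell cannot be told apart.

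Cisplatin against vehicle asked how the collagen genes stood in the injured kidney. With edgeR's quasi-likelihood test, 22 of the 39 chains were called (Benjamini-Hochberg adjusted p below 0.01 and log2 fold change beyond 1 in either direction), 16 higher and 6 lower. Of all 17131 genes tested, 24.1% were called, 12.1% higher and 12.1% lower. With no limit on the fold, 19 chains were higher and 11 lower at an adjusted p below 0.05, beside 34.6% and 35.9% of all genes. The chains called higher spanned the classes: Col1a1, Col1a2, Col3a1, Col5a1, and Col11a1 among fibrillar chains, Col4a1, Col4a2, Col4a6, and Col18a1 among basement membrane chains, and Col6a1, Col6a2, Col7a1, Col8a2, Col12a1, Col13a1, and Col17a1 among the others. Those called lower were Col5a3, Col6a4, Col6a5, Col6a6, Col19a1, and Col25a1. The median log2 fold change was 0.73 for fibrillar chains, 1.02 for basement membrane chains, and -0.14 for other chains, beside -0.01 for all genes tested. The groups did not overlap for 23 of the 39 chains (55.3% of all genes tested). Among the 30 chains with at least 10 counts in every library, 15 were called, 13 higher and 2 lower, beside 19.4% of all genes under the same filter. Dropping the 3 libraries with high fat and leukocyte markers, all of series c3, left 17 calls of 39. Of these, 11 were higher and 6 lower, and 24.7% of all genes were called. Of the chains called lower, Col6a4, Col19a1, and Col25a1 reached 10 counts only in mice without cisplatin. They were thus included only through the groups where they are high, and their calls are given as a description. Col6a6 reached 10 counts in 5 libraries only with mice without cisplatin counted, so its calls are a description too. Of the chains called higher, Col11a1 and Col17a1 reached 10 counts in 5 libraries only with the cisplatin-treated mice counted. Their calls are likewise a description.

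When KW6002 was added to cisplatin, 11 chains were called lower than with cisplatin alone and 0 higher, where 10.3% of all genes were called, 5.66% lower and 4.65% higher. They were Col1a1, Col1a2, Col3a1, Col11a1, and Col27a1 among fibrillar chains, Col4a1 and Col18a1 among basement membrane chains, and Col6a2, Col7a1, Col12a1, and Col13a1 among the others. At an adjusted p below 0.05 with no limit on the fold, 24 chains were lower and 4 higher, beside 27.2% and 28.6% of all genes (55.8% in either direction). The median log2 fold change was -0.97 for fibrillar chains, -0.86 for basement membrane chains, and -0.36 for other chains, beside 0.01 for all genes. The groups did not overlap for 20 chains (37.8% of all genes). Both comparisons share the 5 cisplatin libraries, so values of 1 gene in them are not independent. With the fat marker level as a covariate, 7 chains were called, all lower, and 1 of these was fibrillar in place of 5, and 8.22% of all genes were called in that fit. The count of fibrillar chains called fell to 3 without cisplatin replicate 1 or without replicate 2, 3, or 6 of the co-treated group.

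**Figure D1:**
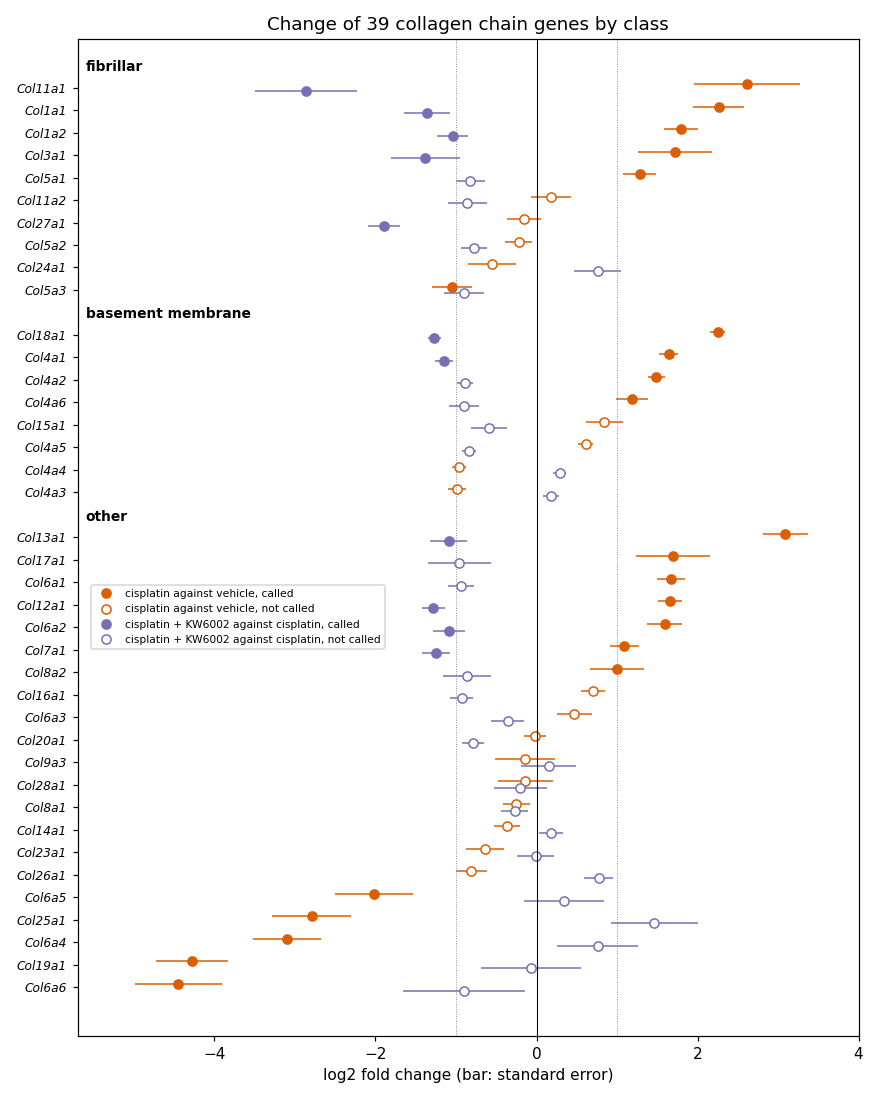
Log2 fold change (x axis, bar: standard error) of the 39 described collagen chains, by class, for cisplatin against vehicle (orange) and cisplatin plus KW6002 against cisplatin (purple); filled points were called and dotted lines mark a log2 fold change of 1 in either direction. In the first comparison 16 chains were called higher and 6 lower, and in the second 11 lower and 0 higher.

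Among basement membrane chains, Col4a1 and Col4a2 encode the chains of the ubiquitous type IV network. They lie head to head on chromosome 8 (mm10: Col4a1 at chr8:11198423-11312826 on the minus strand, Col4a2 at chr8:11312805-11449287 on the plus strand), and their first exons overlap by 22 bases. That overlap is shown because both genes start there; read on the plus strand, with capitals marking GGGCGG, a GC box, it is:

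Col4a1 and Col4a2 first exon overlap, chr8:11312805-11312826: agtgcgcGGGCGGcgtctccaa

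In the vehicle mice, Col4a1 stood at 376, 306, 267, 385, and 373 CPM. The cisplatin-treated mice held 1206, 1045, 1076, 1004, and 996 CPM. Co-treated mice ranged from 387 to 596 CPM with a median of 462, and KW6002 mice from 262 to 411 with a median of 322. The cisplatin group thus lay above every other mouse, and the co-treated mice lay above all vehicle mice. Col4a1 rose 3.12-fold with cisplatin (log2 fold change 1.64 ± 0.12, SE, adjusted p = 4.76e-11) and fell by 1.15 on the log2 scale when KW6002 was added (SE 0.11, adjusted p = 1.99e-08).

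Col4a2 followed at a smaller step. Its vehicle levels were 254, 208, 197, 277, and 268 CPM, and its levels with cisplatin were 749, 675, 680, 645, and 639 CPM. Co-treated mice held 304 to 440 CPM, median 370, with no overlap with either group. The rise was 2.81-fold (log2 fold change 1.49 ± 0.11, adjusted p = 2.27e-11), and the fall with KW6002 was 0.89 on the log2 scale (SE 0.10, adjusted p = 1.31e-07), short of the limit of 1. Within each library, the ratio of Col4a2 to Col4a1 counts was 0.706 ± 0.0273 (SD, n = 5) in vehicle mice, 0.636 ± 0.0101 in cisplatin-treated mice, and 0.769 ± 0.0376 in co-treated mice. On the log2 scale this ratio changed by -0.15 with cisplatin (exact two-sided permutation test, p = 0.00794, adjusted p = 0.0159 over 12 ratio tests) and by 0.27 when KW6002 was added (exact p = 0.00433, adjusted p = 0.0159). These are the smallest p-values that 5 against 5 and 6 against 5 mice can give.

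Col18a1, the chain of type XVIII collagen, had the smallest adjusted p among the 39 chains in both comparisons. It lies on the minus strand at chr10:77052178-77166548. The 100 bases before its annotated start, written in the direction of the gene, are shown because they hold the GC box 3 times, here in capitals as its complement CCGCCC:

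Col18a1 upstream, chr10:77166549-77166648: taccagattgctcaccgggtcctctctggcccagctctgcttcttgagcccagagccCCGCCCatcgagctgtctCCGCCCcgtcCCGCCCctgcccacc

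Vehicle mice held 229, 178, 192, 239, and 231 CPM of Col18a1, and KW6002 mice 200 to 252 CPM with a median of 202. The cisplatin-treated mice held 1145, 962, 983, 969, and 1017 CPM. In co-treated mice the range was 384 to 511 CPM with a median of 412. No co-treated mouse overlapped with a vehicle or a cisplatin-treated mouse. The gene rose 4.75-fold with cisplatin (log2 fold change 2.25 ± 0.09, adjusted p = 2.77e-15) and fell by 1.27 on the log2 scale with KW6002 (SE 0.08, adjusted p = 6.03e-11). With the fat marker level as a covariate the second value was -1.33 (adjusted p = 7.42e-09).

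Col4a3 and Col4a4, the chains of the glomerular network, went the other way. They lie head to head on chromosome 1 (Col4a4 at chr1:82448423-82586849 on the minus strand, Col4a3 at chr1:82586921-82722059 on the plus strand). The 71 bases between their annotated starts, read on the plus strand, hold no CCAAT motif, no GC box, and no TATAAA motif, and are shown as the interval that both genes share:

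Col4a3 and Col4a4 shared interval, chr1:82586850-82586920: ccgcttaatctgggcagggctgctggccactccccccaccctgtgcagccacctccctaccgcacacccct

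Col4a3 stood at 320, 393, 393, 543, and 485 CPM in vehicle mice and at 209, 238, 198, 201, and 224 CPM with cisplatin. Co-treated mice held 210 to 289 CPM, median 239, and overlapped with the cisplatin-treated mice. KW6002 mice held 372 to 452 CPM, median 393. The fall with cisplatin was 0.99 on the log2 scale (SE 0.11, adjusted p = 2.74e-08), just inside the limit of 1, and the difference between co-treated and cisplatin-treated mice was 0.18 (SE 0.10, adjusted p = 0.144).

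Its neighbour Col4a4 was at 346.2, 402, 384, 487, and 453 CPM in vehicle mice and at 203, 247, 203, 197, and 217 CPM in cisplatin-treated mice. KW6002 mice held 360 to 419 CPM, median 380, and co-treated mice 233 to 311 CPM, median 255. All cisplatin-treated mice lay below all mice without cisplatin. Col4a4 fell by 0.96 on the log2 scale (SE 0.09, adjusted p = 1.46e-09) and rose by 0.29 when KW6002 was added (SE 0.08, adjusted p = 0.00518). Podocytes, which make glomerular chains, were followed by 7 marker genes. Their summed CPM had a median of 580 in vehicle mice, 551 with cisplatin, and 547 in co-treated mice, and the lowest and highest co-treated mice were at 496 and 569. Of these 7 markers, 3 were higher and 4 lower with cisplatin at an adjusted p below 0.05 (70.5% of all genes passed in either direction). None was called, beside 24.1% of all genes. The tubule markers summed to 17554 to 20670 CPM in vehicle mice and 3175 to 3715 with cisplatin. Of these 6 markers, 5 were called lower and 1 higher with cisplatin, beside 12.1% of all genes in each direction. Which cells the change of Col4a3 and Col4a4 came from was not tested.

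With these opposite moves under cisplatin, the count ratio of Col4a3 to Col4a1, which needs no scaling between libraries, separated the groups. It was 0.85, 1.28, 1.47, 1.41, and 1.3 in vehicle mice and 0.965 to 1.56 in KW6002 mice, median 1.3. In cisplatin-treated mice it was 0.174, 0.228, 0.184, 0.201, and 0.225, and in co-treated mice 0.352 to 0.585, median 0.542. The 3 sets of vehicle, cisplatin-treated, and co-treated mice did not overlap. On the log2 scale the ratio changed by -2.63 with cisplatin (exact two-sided permutation test, p = 0.00794, adjusted p = 0.0159) and by 1.34 when KW6002 was added (exact p = 0.00433, adjusted p = 0.0159). For KW6002 against vehicle the difference was 0.02 (exact p = 0.879, adjusted p = 0.959). Among c5 mice alone the difference with cisplatin was -2.75, where 2 vehicle mice are too few to pass the threshold. When KW6002 was added to cisplatin, Col4a1 fell by 1.15 while Col4a3 gave 0.18 (edgeR adjusted p = 0.144). The ratio change at that step thus came mainly through Col4a1.

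**Figure D2:**
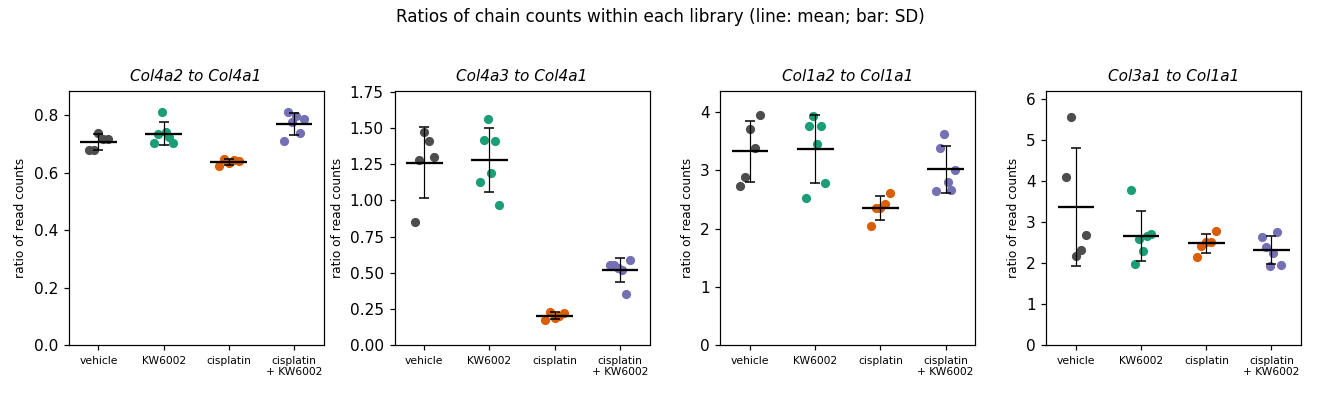
Ratio of the read counts of 2 collagen chains within each library (y axis, from 0; not corrected for gene length), by group; points are mice, lines means, and bars SD. The Col4a3 to Col4a1 ratio was 0.85 to 1.47 in vehicle mice, 0.174 to 0.228 in cisplatin-treated mice, and 0.352 to 0.585 in co-treated mice.

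The X-linked pair Col4a5 and Col4a6 lies head to head with 1308 bases between the genes (Col4a6 at chrX:141165403-141474076, minus strand; Col4a5 at chrX:141475385-141689234, plus strand). Col4a5, the partner of the glomerular chains, was at 64.1, 74.1, 76.9, 81, and 76 CPM in vehicle mice, at 130, 118, 106, 107, and 109 CPM with cisplatin, and at 56.8 to 77.1 CPM, median 62.7, in co-treated mice. Unlike Col4a3 and Col4a4 it was higher in every cisplatin-treated mouse than in any vehicle mouse (log2 fold change 0.61 ± 0.09, adjusted p = 2.17e-06). It fell by 0.84 when KW6002 was added (SE 0.09, adjusted p = 2.78e-08), and co-treated against vehicle gave -0.23 (SE 0.09, adjusted p = 0.0267). That last value did not pass with scaling by library size, with the fat covariate, or without vehicle replicate 3 or 4 or co-treated replicate 2 or 3. Col4a6, a chain of the smooth muscle and Bowman capsule networks, was at 3.59, 3.73, 4.84, 7.19, and 6.41 CPM in vehicle mice and at 12.9, 12.7, 10.6, 10.6, and 12 CPM with cisplatin. It rose by 1.19 (SE 0.20, adjusted p = 1.73e-05) and fell by 0.90 in co-treated mice (SE 0.19, adjusted p = 3.19e-04), whose levels ran from 4.58 to 9.85 CPM with a median of 5.55. The KW6002 mice held 65.7 to 89.9 CPM of Col4a5, median 74.9, and 5.47 to 8.83 CPM of Col4a6, median 7.16.

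Col15a1 completed the class. It rose by 0.84 on the log2 scale with cisplatin (SE 0.23, adjusted p = 0.00234) and fell by 0.59 with KW6002 (SE 0.22, adjusted p = 0.0242). The fall did not pass with the fat covariate (log2 fold change -0.31, adjusted p = 0.382), or without cisplatin replicate 1 or 5 or co-treated replicate 2 or 3 (adjusted p of 0.0588 to 0.0742). At an adjusted p below 0.05, then, 6 of 8 basement membrane chains were higher and 2 lower with cisplatin, and in co-treated against cisplatin-treated mice 6 were lower and 1 higher. The shares of all genes were 34.6% higher and 35.9% lower in the first comparison and 27.2% lower and 28.6% higher in the second.

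**Figure D3:**
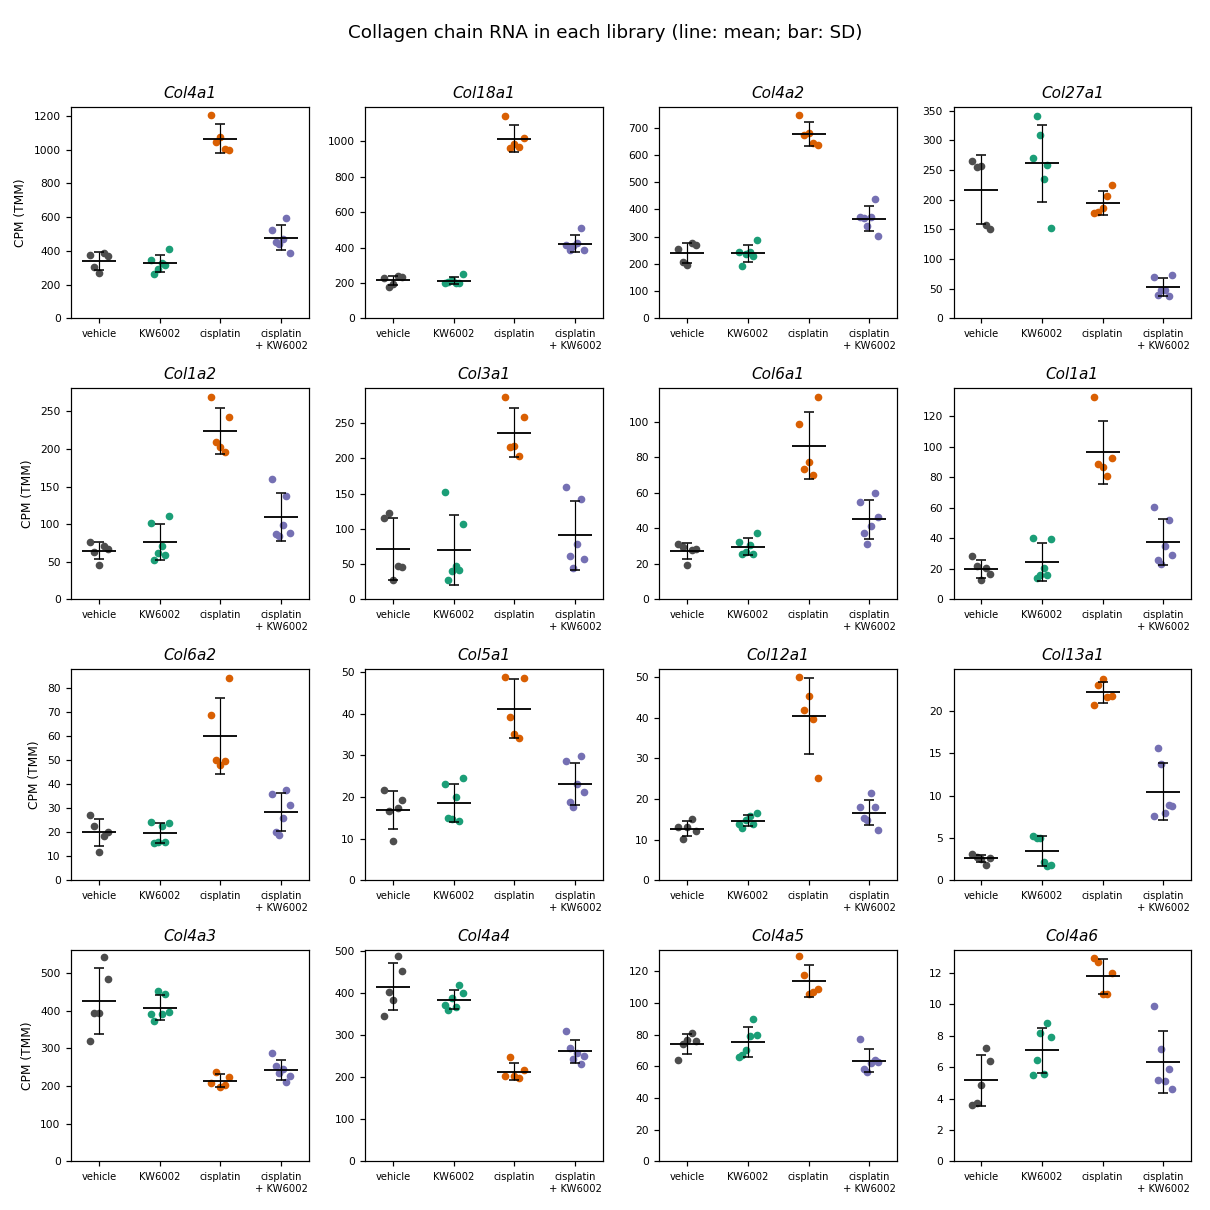
CPM of the 16 chains described mouse by mouse (y axes from 0, linear, 1 scale per gene), by group; points are mice, lines means, and bars SD. For Col18a1 the cisplatin-treated mice sit between 962 and 1145 CPM, above all other mice, whereas for Col27a1 the co-treated mice sit between 37.1 and 73.2 CPM, below all other mice.

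Type I collagen, the main fibrillar collagen of scar and bone, is a trimer of 2 α1 chains and 1 α2 chain. Its α1 gene Col1a1 (chr11:94936224-94953042, plus strand) was at 28.1, 22, 12.4, 20.8, and 16.9 CPM in vehicle mice and at 132, 88.7, 86.4, 81, and 92.7 CPM with cisplatin. Co-treated mice held 23.1 to 60.6 CPM, median 32.2, and KW6002 mice 14.1 to 40.4 CPM, median 18.1. Every cisplatin-treated mouse was above every other mouse, while the co-treated and vehicle mice overlapped. Col1a1 rose 4.8-fold with cisplatin (log2 fold change 2.26 ± 0.32, adjusted p = 1.14e-06) and fell by 1.36 with KW6002 (SE 0.29, adjusted p = 3.53e-04).

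Its partner Col1a2 (chr6:4504814-4541544, plus strand) was at 76.8, 63.4, 46.2, 70.3, and 66.6 CPM in vehicle mice and at 270, 209, 203, 196, and 242 CPM with cisplatin. The co-treated range was 83.9 to 160 CPM, median 93.5, between those of the 2 other groups, and KW6002 mice held 52.9 to 110 CPM, median 66.3. Col1a2 rose by 1.79 (SE 0.21, adjusted p = 7.08e-08) and fell by 1.04 (SE 0.19, adjusted p = 8.81e-05). The count ratio of Col1a2 to Col1a1 was 3.33 ± 0.523 (SD, n = 5) in vehicle mice, 2.35 ± 0.205 with cisplatin, and 3.02 ± 0.404 (n = 6) in co-treated mice, so Col1a1 moved more than its partner. Both differences passed (log2 differences -0.49 and 0.35, exact two-sided permutation tests, adjusted p = 0.0159 for each).

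Col3a1 (chr1:45311538-45349706, plus strand), whose homotrimer forms the fine reticular fibrils, differed widely between mice of the vehicle group. Vehicle mice held 115, 122, 27.1, 47.9, and 45.3 CPM, where the first 2 are the mice with high fat and leukocyte markers. Cisplatin-treated mice held 286, 216, 217, 204, and 259 CPM, above all other mice. Co-treated mice ranged from 44.9 to 160 CPM with a median of 70.2, and KW6002 mice from 28 to 153 CPM with a median of 44.4. Col3a1 rose by 1.72 (SE 0.46, adjusted p = 0.00191), or by 2.56 without the 3 libraries with high fat and leukocyte markers (adjusted p = 3.10e-05). It fell by 1.38 in co-treated mice (SE 0.43, adjusted p = 0.00859). The count ratio of Col3a1 to Col1a1 passed in neither comparison (exact permutation tests, adjusted p = 0.436 for both).

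Some marker sums of other cell types moved with the fibrillar chains, and their part in the result was not tested beyond the fat covariate. For the marker counts that follow, 34.6% of all genes were higher and 35.9% lower with cisplatin at an adjusted p below 0.05. When KW6002 was added to cisplatin, 28.6% of all genes were higher and 27.2% lower. The sum of 7 endothelium markers did not rise with cisplatin. Its median was 482 CPM in vehicle mice, 464 with cisplatin, and 413 in co-treated mice, and with cisplatin 1 marker was higher and 3 were lower at an adjusted p below 0.05. With the fat marker level in the fit, the co-treated against cisplatin values were -0.76 for Col1a1 (adjusted p = 0.0553), -0.70 for Col1a2 (adjusted p = 0.0145), and -0.32 for Col3a1 (adjusted p = 0.576), beside -1.10 for Col4a1 (adjusted p = 5.86e-06). The same fit gave -0.43 for Col5a2 (adjusted p = 0.0563) and -0.33 for Col5a3 (adjusted p = 0.317). The summed fat markers of the 2 groups did not overlap. Of the 6 fat markers, 5 were lower in co-treated than in cisplatin-treated mice at an adjusted p below 0.05, and 0 passed for cisplatin against vehicle. The fibroblast markers summed to 106 to 233 CPM in vehicle mice, 316 to 384 with cisplatin, and 185 to 291 in co-treated mice. With cisplatin against vehicle 3 of the 7 were higher and 1 lower, and in co-treated against cisplatin-treated mice 4 were lower and 0 higher. Mural and contractile markers summed to 204 to 269 CPM in vehicle mice, 418 to 495 with cisplatin, and 286 to 388 in co-treated mice, with no overlap between these groups. Of these 6 markers, 5 were higher and 0 lower with cisplatin at an adjusted p below 0.05. With cisplatin 3 of them were called higher, beside 12.1% of all genes. In co-treated against cisplatin-treated mice 3 were lower and 0 higher. The leukocyte markers summed to 29.2 to 82.9 CPM in vehicle mice, 66.9 to 86.1 with cisplatin, and 21.5 to 39.5 in co-treated mice. With cisplatin against vehicle, 1 of the 6 was higher and 4 were lower (34.6% and 35.9% of all genes), so the list did not rise as a whole. In co-treated against cisplatin-treated mice 1 was lower and 0 higher (27.2% and 28.6% of all genes).

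Type V chains, which set the width of type I fibrils, did not move as 1 unit. Col5a1 (chr2:27886425-28039514, plus strand) was at 21.6, 16.6, 9.48, 17.4, and 19.3 CPM in vehicle mice and at 48.7, 39.2, 35.1, 34.1, and 48.5 CPM with cisplatin (log2 fold change 1.28 ± 0.20, adjusted p = 4.30e-06). Co-treated mice held 17.5 to 29.8 CPM, median 22.2 (log2 fold change -0.82 ± 0.18 against cisplatin, adjusted p = 5.84e-04), and KW6002 mice 14.3 to 24.6 CPM, median 17.4. Col5a2 gave -0.22 with cisplatin (SE 0.17, adjusted p = 0.257), although it lies only 24614 bases from Col3a1. It fell by 0.78 when KW6002 was added (SE 0.16, adjusted p = 3.56e-04), and its co-treated mice, at 17.8 to 26.4 CPM, lay below all vehicle mice, at 35.2 to 47.7. Col5a3 fell by 1.05 with cisplatin (SE 0.25, adjusted p = 6.94e-04). Its vehicle values of 16.3 and 20.5 CPM came from the mice with high fat markers, the other 3 held 6.12 to 8.84, and without the 3 libraries the value was -0.41 (adjusted p = 0.0554).

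Col27a1, a fibrillar chain known from cartilage, did not pass with cisplatin alone and was called lower when KW6002 was added. It is annotated at chr4:63214004-63334991 on the plus strand. RefSeq gives a later start, so the bases shown next lie inside this interval. The 100 bases before the start that RefSeq gives it hold 1 GC box, in capitals, and are shown because the gene was lowest when both drugs were given:

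Col27a1 upstream, chr4:63215312-63215411: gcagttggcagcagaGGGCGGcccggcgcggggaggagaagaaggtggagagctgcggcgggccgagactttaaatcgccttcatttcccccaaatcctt

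Vehicle mice held 266, 256, 257, 157, and 150 CPM of Col27a1, and cisplatin-treated mice 178, 179, 186, 206, and 225 CPM. Co-treated mice were between 37.1 and 73.2 CPM, with a median of 47.1, and KW6002 mice between 153 and 341 CPM, with a median of 265. No co-treated mouse reached the lowest mouse of any other group. The difference with cisplatin alone was -0.16 (SE 0.21, adjusted p = 0.51), and 0.34 among c5 mice (adjusted p = 0.216), since the 3 vehicle mice of series c3 were the higher ones. Co-treated against cisplatin-treated mice gave -1.89 (SE 0.20, adjusted p = 5.65e-08), a 3.71-fold difference, and co-treated against vehicle mice gave -2.05 (SE 0.20, adjusted p = 1.40e-08). With the fat marker level as a covariate the first of these was -1.67 (adjusted p = 1.00e-05), and among c5 mice the second was -1.55 (adjusted p = 1.08e-05). Col5a2, Col11a2, and Col20a1 likewise did not pass with cisplatin alone and were lower in co-treated mice than in vehicle mice, by smaller amounts (log2 fold changes of -0.99, -0.68, and -0.81, adjusted p of 1.99e-05, 0.0226, and 3.35e-05). The Col11a2 value did not pass with scaling by library size, or without vehicle replicate 4 or 5 or co-treated replicate 3 (adjusted p of 0.0537 to 0.112).

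Of the remaining fibrillar chains, Col11a1 was near the limit of detection, with 0 to 7 counts in vehicle libraries, 2 to 37 with cisplatin, and 0 to 6 in co-treated libraries. Its values were 2.61 (SE 0.66, adjusted p = 0.00135) and -2.86 (SE 0.63, adjusted p = 5.02e-04). It was included only because 5 libraries reached 10 counts, cisplatin-treated mice among them. Among c5 mice the first value was 1.69 (adjusted p = 0.0502). Col11a2 gave 0.18 with cisplatin (adjusted p = 0.546) and fell by 0.86 in co-treated mice (SE 0.24, adjusted p = 0.00482). Col24a1 was -0.55 with cisplatin (adjusted p = 0.111) and was the only fibrillar chain that rose with KW6002 on top of cisplatin at an adjusted p below 0.05 (log2 fold change 0.76 ± 0.29, adjusted p = 0.028). It did not pass without cisplatin replicate 1, 2, or 3 or co-treated replicate 1 (adjusted p of 0.0559 to 0.0891).

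Type VI collagen, the beaded filament around cells, is assembled from Col6a1, Col6a2, and 1 of several longer chains. Col6a1 (chr10:76708792-76726168, minus strand) was at 31.2, 29.5, 19.5, 27.6, and 28.6 CPM in vehicle mice and at 98.5, 73.1, 77, 69.8, and 114 CPM with cisplatin (log2 fold change 1.67 ± 0.17, adjusted p = 9.81e-09). Co-treated mice held 31.3 to 60 CPM, median 43.6, and KW6002 mice 25.4 to 37.3 CPM, median 28.6. The fall when KW6002 was added was 0.94 on the log2 scale (SE 0.16, adjusted p = 2.65e-05).

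Col6a2, on the same strand and 85161 bases away (chr10:76595762-76623630), was at 27, 22.5, 11.9, 18.6, and 20 CPM in vehicle mice and at 68.5, 50.2, 48.1, 49.5, and 84.1 CPM with cisplatin. Co-treated mice held 19 to 37.6 CPM, median 28.6, and KW6002 mice 15.5 to 24.4 CPM, median 19.3. It rose by 1.59 (SE 0.22, adjusted p = 1.14e-06) and fell by 1.09 (SE 0.20, adjusted p = 1.06e-04). Col6a3, the usual long chain, gave 0.47 with cisplatin (SE 0.22, adjusted p = 0.0631) and -0.36 in co-treated mice (SE 0.21, adjusted p = 0.147), so the 2 short chains passed and their partner did not. With cisplatin Col6a3 did pass under 6 of the alternatives, among them scaling by library size only and a fit of the compared groups alone, so this contrast depends on the processing.

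The alternative long chains of type VI, Col6a4, Col6a5, and Col6a6, lie in a row on chromosome 9 (from 105687809 to 106096783, all on the minus strand) and were called lower with cisplatin. Col6a6 had 141 to 229 counts in vehicle libraries, 52 to 369 in KW6002 libraries, 6 to 15 with cisplatin, and 1 to 13 in co-treated libraries. It fell by 4.45 on the log2 scale (SE 0.54, adjusted p = 1.59e-07). Col6a6 met the limit of 10 counts in 5 libraries only with mice without cisplatin counted, so its calls are a description. Col6a5 fell by 2.02 (SE 0.48, adjusted p = 7.73e-04). The fitted value of Col6a4 was -3.10 (SE 0.42, adjusted p = 8.02e-07), with 15 to 31 counts in vehicle libraries, 26 to 44 in KW6002 libraries, 0 to 6 with cisplatin, and 2 to 8 in co-treated libraries. Only mice without cisplatin brought it past the limit of 10 counts. When KW6002 was added to cisplatin none of the 3 passed (log2 fold changes of 0.76, 0.34, and -0.90 for Col6a4, Col6a5, and Col6a6, with adjusted p of 0.209, 0.584, and 0.325). Co-treated against vehicle mice gave -2.34, -1.68, and -5.35 in the same order, and all 3 were called. For Col6a5 this last comparison gave -0.79 with the fat covariate (adjusted p = 0.123).

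Among collagens that lie on fibrils, Col12a1 (chr9:79598991-79718831, minus strand) was at 13.2, 10.1, 13.1, 15, and 12.2 CPM in vehicle mice and at 50, 41.8, 45.4, 39.6, and 25.2 CPM with cisplatin. Co-treated mice held 12.4 to 21.4 CPM, median 16.7, and KW6002 mice 13 to 16.6 CPM, median 14.3. It rose by 1.66 (SE 0.15, adjusted p = 1.46e-09) and fell by 1.28 (SE 0.14, adjusted p = 9.58e-08). Col16a1 rose by 0.70 (SE 0.15, adjusted p = 1.94e-04) and fell by 0.93 (SE 0.14, adjusted p = 7.52e-06). Col14a1 fell by 0.37 with cisplatin (SE 0.16, adjusted p = 0.0394) and gave 0.18 in co-treated mice (adjusted p = 0.329). Its fall did not pass with scaling by library size, nor without vehicle replicate 1, 4, or 5 or cisplatin replicate 1, 2, 3, or 4 (adjusted p of 0.0731 to 0.384).

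Col19a1, of the same kind, had 43 to 89 counts in vehicle libraries, 24 to 115 in KW6002 libraries, 1 to 8 with cisplatin, and 0 to 6 in co-treated libraries. It reached 10 counts only in mice without cisplatin and was included through them. The fitted value was -4.28 on the log2 scale (SE 0.45, adjusted p = 1.28e-08), and adding KW6002 gave -0.07 (SE 0.62, adjusted p = 0.933). Co-treated against vehicle mice gave -4.35 (SE 0.43, adjusted p = 1.38e-08). Col20a1 gave -0.02 with cisplatin (adjusted p = 0.9) and fell by 0.79 in co-treated mice (SE 0.14, adjusted p = 4.58e-05), and Col9a3 passed in neither comparison (values of -0.14 and 0.15).

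Membrane-spanning collagens split. Col13a1 (chr10:61838236-61979108, minus strand), found at cell adhesions and the neuromuscular junction, was at 3.08, 2.81, 2.55, 1.87, and 2.67 CPM in vehicle mice and at 20.6, 23, 23.8, 21.6, and 21.8 CPM with cisplatin. That rise of 3.09 on the log2 scale (8.53-fold, SE 0.28, adjusted p = 1.18e-09) was the largest rise of the 39 chains. Co-treated mice held 7.64 to 15.6 CPM, median 8.84, a log2 fold change of -1.09 against cisplatin (SE 0.23, adjusted p = 4.30e-04) and of 2.00 against vehicle (SE 0.27, adjusted p = 1.35e-06). KW6002 mice fell into the label series, with 4.95 to 5.19 CPM in the 3 c3 mice and 1.69 to 2.23 CPM in the 3 c5 mice.

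Col17a1, the collagen of epithelial hemidesmosomes, rose by 1.70 at a very low level (0 to 10 counts in vehicle libraries and 14 to 26 with cisplatin, SE 0.46, adjusted p = 0.00229). It was included only through the cisplatin-treated mice. Col23a1 fell by 0.64 with cisplatin (SE 0.24, adjusted p = 0.0188), which did not pass with scaling by library size or without vehicle replicate 4 or 5 (adjusted p of 0.0535 to 0.104). Col25a1, likewise included through mice without cisplatin alone, gave -2.79 with cisplatin (SE 0.49, adjusted p = 2.40e-05) and was higher by 1.46 when KW6002 was added (SE 0.54, adjusted p = 0.0245), at 3 to 7 counts in co-treated libraries, 0 to 5 with cisplatin, and 8 to 19 in vehicle libraries. The latter value did not pass without cisplatin replicate 1, 2, or 5 (adjusted p of 0.0575 to 0.065). In co-treated against cisplatin-treated mice, Col17a1 gave -0.96 (adjusted p = 0.0408). That value did not pass without cisplatin replicate 3, 4, or 5 or co-treated replicate 1, 2, 4, or 6. Col23a1 gave -0.01.

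Col7a1, the anchoring fibril chain, rose by 1.09 (SE 0.18, adjusted p = 7.88e-06) and fell by 1.25 (SE 0.17, adjusted p = 1.36e-06), with co-treated mice at 5.28 to 7.29 CPM and vehicle mice at 5.28 to 9.79 CPM. Col26a1 moved oppositely, falling by 0.81 with cisplatin (SE 0.19, adjusted p = 7.34e-04) and rising by 0.77 when KW6002 was added (SE 0.18, adjusted p = 0.00114). Col28a1 passed in neither (values of -0.14 and -0.20). Of the short chain network collagens of endothelial basement membranes, Col8a2 was called at 1.00 with cisplatin (SE 0.33, adjusted p = 0.00946), which c5 mice alone gave as 0.48 (adjusted p = 0.269) and the fit without the 3 libraries with high fat and leukocyte markers as 0.68 (adjusted p = 0.078). In co-treated mice Col8a2 gave -0.86 (adjusted p = 0.0195), or -0.69 without cisplatin replicate 1 (adjusted p = 0.0747). Col8a1 gave -0.25 (adjusted p = 0.21) and -0.27 (adjusted p = 0.182).

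To compare levels between genes, counts were divided by exon length and scaled to a sum of 1000000 per library (TPM). The 39 chains summed to 763 ± 69.7 TPM (SD) in vehicle mice, 777 ± 62.9 in KW6002 mice, 2114 ± 228 in cisplatin-treated mice, and 1012 ± 159 in co-treated mice. TPM takes no account of the loss of abundant tubule RNA. When edgeR likewise scaled by library size only, the median over all genes shifted to 0.20 on the log2 scale for cisplatin against vehicle, with 62.6% of all calls higher and 17 of 22 collagen calls higher. Shares within the collagens do not depend on that scaling. Col4a1 and Col4a2 made up 29.0% ± 1.91 of collagen TPM in vehicle mice, 41.3% ± 1.84 with cisplatin, and 38.3% ± 2.20 in co-treated mice. Col4a3 and Col4a4 held the same 29.0% ± 3.85 in vehicle mice, but 7.03% ± 0.773 with cisplatin and 15.9% ± 2.04 in co-treated mice. Their own summed TPM was 221 ± 36.1, 148 ± 10.4, and 159 ± 21.4 in that order. The last 2 groups overlapped (137 to 161 and 140 to 197), so the higher share in co-treated mice came mainly with the lower collagen sum. Col18a1 went from 10.8% ± 0.801 to 24.3% ± 0.452 and 19.4% ± 1.48.

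The 10 fibrillar chains together held 14.5% ± 3.88 in vehicle mice, 13.7% ± 0.80 with cisplatin, and 10.5% ± 2.23 in co-treated mice, and the ranges of vehicle and cisplatin-treated mice overlapped. In the order of TPM, Col4a1 came first in vehicle mice (124), followed by Col4a3 (116), Col4a4 (105), Col4a2 (98.2), and Col18a1 (82.3). Neighbours in this order overlapped between mice (124 ± 18.2 against 116 ± 22.8 TPM for the first 2, SD), so they are too close to rank. With cisplatin the order was Col18a1 (514), Col4a1 (508), Col4a2 (364), Col3a1 (85.7), and Col4a3 (76.2), where the first 2 and the last 2 are too close to rank.

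**Figure D4:**
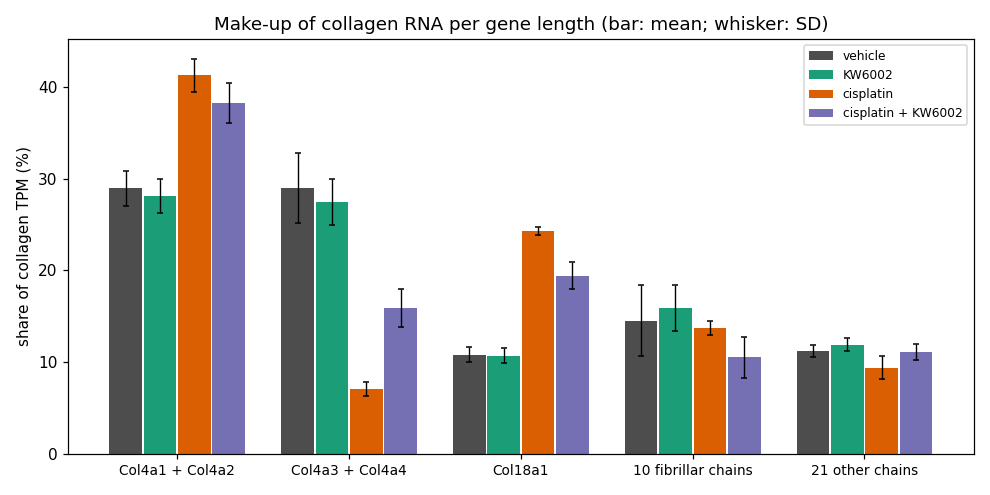
Share of the summed collagen TPM (y axis, percent, from 0) held by 2 type IV pairs, Col18a1, the 10 fibrillar chains, and the 21 other chains, by group; bars are means and whiskers SD, and Col4a5, Col4a6, and Col15a1 are not drawn. Col4a3 and Col4a4 held 29.0% in vehicle mice, 7.03% with cisplatin, and 15.9% in co-treated mice. Their summed TPM overlapped between the last 2 groups (148 ± 10.4 and 159 ± 21.4, SD).

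For KW6002 without cisplatin, few genes passed after adjustment. None of the 39 chains was called against vehicle by edgeR or by DESeq2 (0% of all genes called by edgeR), and 0 reached an adjusted p below 0.05 (0.0175% of all genes), with a median log2 fold change of 0.02. At an unadjusted p below 0.05, 11.3% of all genes passed, as did 3 chains: Col4a6 (0.45), Col5a3 (-0.58), and Col8a1 (-0.57). The groups overlapped for all 39 chains and did not for 1.38% of all genes. DESeq2 called 4 of all genes. Fitted values ran from -0.58 for Col5a3 (SE 0.23, adjusted p = 0.344) to 1.09 for Col11a1 (SE 0.76, adjusted p = 0.602).

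Whether KW6002 acted differently in mice given cisplatin was tested as an interaction term, the effect of KW6002 on top of cisplatin minus its effect on vehicle. The term was called for 13 chains, all negative, where 8.58% of all genes were called, 4.33% negative and 4.24% positive, and 20 chains passed an adjusted p of 0.05 (42.7% of all genes). They were Col1a1, Col1a2, Col11a1, and Col27a1, then Col4a1, Col4a6, and Col18a1, and then Col6a1, Col6a2, Col7a1, Col12a1, Col13a1, and Col16a1. The clearest was Col18a1 (difference of -1.26 ± 0.12, adjusted p = 4.32e-08), and Col27a1 had a difference of -2.16 (SE 0.28, adjusted p = 2.79e-06). For Col3a1 it was -1.34 (SE 0.61, adjusted p = 0.079). Among c5 mice alone 8 chains were called (7.3% of all genes), and Col13a1 was not among those past an adjusted p of 0.05 (difference of -0.84).

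In co-treated against vehicle mice, 8 chains were called (13.4% of all genes, 5.83% higher and 7.59% lower): Col13a1 higher, and Col5a3, Col27a1, Col6a4, Col6a5, Col6a6, Col19a1, and Col25a1 lower. At an adjusted p below 0.05, 25 chains passed (59.7% of all genes). With scaling by library size only, 9 chains were called (13.7% of all genes), 3 higher and 6 lower, and the median over all genes shifted to 0.155. Short of the fold limit, Col18a1 was still higher by 0.98 (SE 0.09, adjusted p = 2.50e-09), Col4a2 by 0.61 (SE 0.10, adjusted p = 2.20e-05), Col1a2 by 0.76 (SE 0.20, adjusted p = 0.00223), and Col4a1 by 0.49 (SE 0.12, adjusted p = 9.73e-04). Col4a3 (-0.81 ± 0.10, adjusted p = 5.36e-07) and Col4a4 (-0.67 ± 0.08, adjusted p = 4.26e-07) were still lower. Col3a1 gave 0.34 (SE 0.43, adjusted p = 0.505), but 1.38 with the fat covariate (adjusted p = 0.00792) and 1.18 without the 3 libraries with high fat and leukocyte markers (adjusted p = 0.0182). Groups did not overlap for 16 chains (37.5% of all genes).

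Promoter sequences were looked at as a description. The 250 bases before the start in RefSeq (GRCm38.p6) were searched for 32 of the 39 chains, in 34 windows. On either strand, the GC box GGGCGG was in 61.8% of these windows and in 32.7% of all 32851 windows. The CCAAT motif was in 35.3% and 33.8%, and the TATAAA motif in 11.8% and 12.4%. These matches are not binding sites shown to be used. The windows with GGGCGG include chains that rose (Col18a1, Col1a2, and Col6a2), chains that fell (Col5a3, Col6a4, and Col25a1), and Col27a1.

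Genes that make, cross-link, and bind collagen were read from 6 lists with 53 members, 50 of which were tested. With cisplatin 13 were called higher and 3 lower, and when KW6002 was added 1 higher and 8 lower. That is 32.0% and 18.0% of the tested members, beside 24.1% and 10.3% of all genes. In the counts that follow, higher and lower mean an adjusted p below 0.05, which 34.6% of all genes passed as higher and 35.9% as lower with cisplatin, and 28.6% and 27.2% when KW6002 was added. Cross-linking enzymes moved together: all 6 were higher with cisplatin and 5 were called, with a median of 1.53, and in co-treated mice all 6 were lower and 4 were called, with a median of -1.11. Lox, lysyl oxidase, which joins the chains of fibrils, went from 6.33 CPM in vehicle mice to 69.3 with cisplatin and 13.3 in co-treated mice (log2 fold changes 3.45 ± 0.30, adjusted p = 6.18e-10, and -2.39 ± 0.26, adjusted p = 8.79e-08). Its relative Loxl1 gave 1.65 and -1.23. Pxdn, peroxidasin, which links type IV collagen, rose by only 0.29 (SE 0.10, adjusted p = 0.0145) but fell by 1.10 (SE 0.10, adjusted p = 4.19e-09).

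Among the 7 tested genes of propeptide removal, 2 rose and 2 fell with cisplatin. Those that rose were Adamts2, which cuts the amino-terminal propeptide of fibrillar procollagens (log2 fold changes 2.22 ± 0.26 and then -1.71 ± 0.24 with KW6002), and Bmp1, which cuts the carboxy-terminal one (1.60 ± 0.09 and -0.47 ± 0.08). In co-treated against cisplatin-treated mice, these 2 were lower but 3 others of the list were higher, with a median of 0.31. Procollagen hydroxylation and glycosylation had 13 tested genes, 8 higher and 3 lower with cisplatin and 1 higher and 7 lower when KW6002 was added, and the largest changes at good depth with cisplatin were falls of Colgalt2 (-1.14 ± 0.10) and P3h2, the prolyl 3-hydroxylase of type IV collagen (-0.98 ± 0.07). Of 8 folding and export genes 6 rose and 2 fell (3 higher and 4 lower when KW6002 was added), led by the collagen chaperone Fkbp10 (1.62 ± 0.12). In the collagen receptor list 6 of 9 rose and 0 fell, among them the uptake receptor Mrc2 (1.50 ± 0.19) and the kinase Ddr1 (0.97 ± 0.06), and the same number was lower in co-treated than in cisplatin-treated mice. The 7 proteoglycans that bind fibrils split into 2 higher and 2 lower (2 higher and 4 lower when KW6002 was added), with Bgn, biglycan, rising by 1.79 (SE 0.15). Bgn then fell by 0.83 in co-treated mice.

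**Figure D5:**
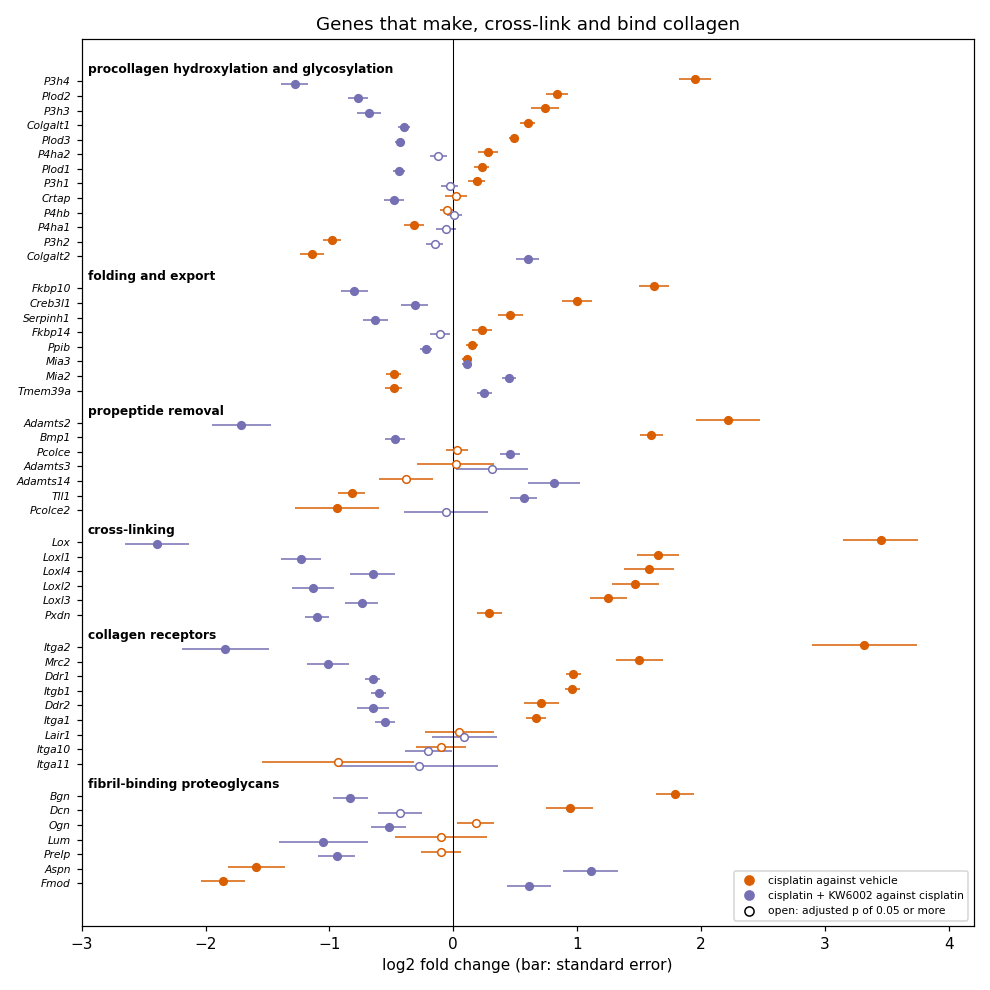
Log2 fold change (x axis, bar: standard error) of the 50 tested genes that make, cross-link, or bind collagen, by list, for cisplatin against vehicle (orange) and cisplatin plus KW6002 against cisplatin (purple); open points have an adjusted p of 0.05 or more. All 6 cross-linking genes lie right of 0 in the first comparison and left of it in the second.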

How the data were processed

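RNA was measured in whole kidneys of 22 mice by stranded mRNA sequencing with single reads of 50 bases. The deposited table holds counts: the authors mapped reads to mm10 with STAR 2.5.3a and counted unique reads per gene with HTSeq 0.6.1p1 (bcl2fastq 2.17.1.14 before that, per the labels and the study's methods). The methods name Ensembl releases 90 and 102, and whether strand was used in counting is not given in the sources used here. Reads of Col3a1, Col4a1, Col4a2, Col4a3, Col5a1, Col6a4, Col6a6, Col7a1, Col9a3, Col15a1, and Col20a1 are less certain, since exons of another annotated gene overlap theirs. The table also has 66 unnamed columns that were not used. Symbols and positions came from GENCODE release M21 (32824 genes matched, 34 did not and held 0.00459% of counts).

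Groups came from the sample labels. Each library carries its own label number, and p-values measure the spread between libraries. Genes with low counts were removed with filterByExpr (17131 tested, 15727 removed, 99.9% of counts kept), and all 22 libraries were fitted together with TMM factors in edgeR 4.0.16 (R 4.3.3), with its quasi-likelihood test and Benjamini-Hochberg adjustment over all genes tested. All adjusted p-values are from this edgeR fit unless an exact test is named. The biological coefficient of variation was 0.129, and totals of 26471762 to 40510754 counts per library set the precision of low chains. Called means adjusted p below 0.01 and log2 fold change beyond 1. Ratios of counts, with 0.5 added to each, were compared on the log2 scale by exact two-sided permutation tests, adjusted over 12 tests (scipy 1.17.1). TPM used the union of exons. The fit was tested on simulated data. No libraries of a group agreed within sampling noise.

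The collagen chains, their classes, the marker lists, and the pathway lists were chosen with earlier results of these data known. Every chain with at least 10 counts in at least 5 libraries was named. Values per mouse were given for the type IV chains and for the called chains with the highest average CPM (at most 12, average log2 CPM of at least 1). From each pathway list at most 3 genes per comparison were named, those with the largest changes at an adjusted p below 0.05 and an average log2 CPM of at least 3. The alternatives tried were DESeq2 1.42.0, other scalings, other filters and thresholds, the replicate block, the label series as a covariate or series c5 alone, only the groups compared, another pseudocount, and each library left out. A covariate for fat markers and leaving out vehicle replicates 1 and 2 and KW6002 replicate 1 were added after seeing the data.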

Additional observations from a re-analysis of the deposited data

Results flagged for a closer look

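Among 80 groups of per-mouse values tested with Dixon's criterion, 6 held a mouse far from the rest, where chance flags about 1 in 20 groups. For Col18a1 they were KW6002 replicate 6 at 252 CPM and co-treated replicate 5 at 511 CPM. For Col1a1 it was cisplatin replicate 1 at 132 CPM, and for Col4a5 co-treated replicate 1 at 77.1 CPM, the co-treated mouse with the highest fat marker sum. The Col4a2 to Col4a1 count ratio was 0.81 in KW6002 replicate 3, and the Col4a3 to Col4a1 count ratio was 0.352 in co-treated replicate 5.

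The effect of KW6002 differed between mice with and without cisplatin for 13 chains, by the edgeR interaction test (8.58% of all genes). The differences on the log2 scale were -1.64 for Col1a1, -1.27 for Col1a2, -3.95 for Col11a1, and -2.16 for Col27a1 among fibrillar chains. For basement membrane chains they were -1.09 for Col4a1, -1.35 for Col4a6, and -1.26 for Col18a1. For the other chains they were -1.06 for Col6a1, -1.07 for Col6a2, -1.30 for Col7a1, -1.47 for Col12a1, -1.54 for Col13a1, and -1.02 for Col16a1. Col11a1 had at most 37 counts in any library, and Col13a1 gave -0.84 among c5 mice.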

How the results depend on the processing

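The count of chains called changed by more than 1.5 times in these cases. Testing against a log2 fold change of 1 left 12 chains for cisplatin against vehicle, 1 for co-treated against cisplatin, and 1 for the interaction. The shares of all genes were 14%, 2.81%, and 1.52% in that order. Dropping the fold limit at an adjusted p below 0.05 gave 28 for co-treated against cisplatin (55.8% of all genes), 25 for co-treated against vehicle (59.7%), and 20 for the interaction (42.7%). The fat marker covariate gave 7 for co-treated against cisplatin (8.22% of all genes). At least 10 counts in every library gave 5 for co-treated against vehicle (9.21%), and series c5 alone gave 8 for the interaction (7.3%). Among c5 mice the count ratios changed with cisplatin by -0.17 (Col4a2 to Col4a1), -2.75 (Col4a3 to Col4a1), and -0.64 (Col1a2 to Col1a1), where 2 vehicle mice cannot pass the threshold. Leaving out each library in turn gave 20 to 22 calls for cisplatin against vehicle, 8 to 13 for co-treated against cisplatin, 6 to 10 for co-treated against vehicle, 10 to 15 for the interaction, and 0 for KW6002 against vehicle. Among single chains and classes no value changed sign where it passed its threshold in either fit, although values short of it did (Col27a1 with cisplatin, -0.16 and 0.34 among c5 mice). Of these values 99 became weaker, 61 stronger, and 38 counts moved. Where no value is named beside a change, the cause was not tested. Chains under about 10 counts per library are limited by depth.

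The replicate numbers gave no clear pairing of the mice. Deviations of the 31 same-numbered pairs correlated at -0.175 to 0.405 (median 0.00846), and 7 of these pairs were above 0.1. Pairs with different numbers had a median of -0.00142. Of 22 samples, 8 correlated best with their own number, and the number to be met by chance was not computed. With the replicate block in the fit, 22 chains were called for cisplatin against vehicle (24% of all genes) and 11 for co-treated against cisplatin (10%). For KW6002 against vehicle 0 were called (0%), and for co-treated against vehicle 8 (13.4%).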

Other observations

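Some chain genes lie side by side. Within Col4a1 and Col4a2, Col4a3 and Col4a4, and Col6a4 to Col6a6, neighbours changed in the same direction with cisplatin, while Col3a1 (1.72) and Col5a2 (-0.22), which lie 24614 bases apart, did not both pass. Co-treated replicate 6 held 55.1 CPM of summed adrenal cortex markers, where every other library held at most 2.67.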
